A study of Mus musculus with 2 samples.

Results

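The cells described here are macrophages of RM-1 tumours that carried UMIs of the resident macrophage genes Folr2, Lyve1 and Fcna. They were chosen by their measured UMI counts (a UMI, or unique molecular identifier, marks 1 captured RNA molecule). A barcode was a member when it had at least 500 detected genes, at most 15% of its UMIs from mitochondrial genes, at most 3 UMIs of the keratin genes Krt8 and Krt18 together, at least 3 UMIs of the complement genes C1qa, C1qb and C1qc together, and at least 2 UMIs of Folr2, Lyve1 and Fcna together. In all, 130 of the 20198 deposited barcodes met this rule, 58 in the RP-6306 library and 72 in the vehicle library. They were 130 of the 523 C1q-positive cells, which met the other limits, and the remaining 393 C1q-positive cells, 214 in RP-6306 and 179 in vehicle, were the cells they were set against. RM-1 is a mouse prostate cancer cell line, described in the labels as wild type, and tumours were grown from it subcutaneously in C57BL/6 mice. The mice received RP-6306, an inhibitor of PKMYT1, a kinase that restrains CDK1, or vehicle, and tumours were taken on day 10 of treatment. Each treatment has 1 single-cell RNA library, and the labels do not give the number of mice in each library clearly.

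Tissue-resident macrophages of many organs lie along blood vessels and express the folate receptor Folr2 and the hyaluronan receptor Lyve1, with scavenger receptors that take up debris and plasma proteins. In mice, cells with high Lyve1 usually carry little MHC class II, the complex that presents antigen to CD4 T cells. Macrophages newly made from blood monocytes carry the chemokine receptor Ccr2 and often much more MHC class II. Tumours can hold both kinds, and C1q, the recognition protein of the classical complement pathway, is made by most tissue macrophages.

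The libraries held 106465655 UMIs over 10512 barcodes in RP-6306 and 100815022 UMIs over 9686 barcodes in vehicle. Resident-like cells had a median of 5752.5 UMIs and 2322 genes in RP-6306 and of 6383.5 UMIs and 2387 genes in vehicle. The other C1q-positive cells were shallower, with a median of 4508.5 UMIs in RP-6306 and 5098 UMIs in vehicle. Mitochondrial genes held 1.06% of the members' summed UMIs in RP-6306 and 1.20% in vehicle. The libraries shared 34 barcode sequences, of which 1 belonged to a member. For each population and library, UMIs were summed over cells and given per 1000000 UMIs of the sum (CPM). Fold changes are differences of log2(CPM + 1), which understates the change of genes with low levels. With 1 library for each treatment there is no replicate, no test was made, and every interval covers counting error only, at the 95% level.

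Around the threshold, 19 cells in each library had exactly 2 UMIs of Folr2, Lyve1 and Fcna and so were members by the smallest count that the rule allowed. Just outside it, 37 C1q-positive cells in RP-6306 and 33 in vehicle had 1 such UMI, and 177 in RP-6306 and 146 in vehicle had none. At the other end, 10 members in each library had 12 or more of these UMIs, up to 50 in 1 RP-6306 cell and 46 in 1 vehicle cell. Membership was thus a range with many cells near its edge. No cell with 2 C1q UMIs met the rest of the rule, whereas 9 cells in RP-6306 and 11 in vehicle met it apart from having too many keratin UMIs.

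**Figure D1:**
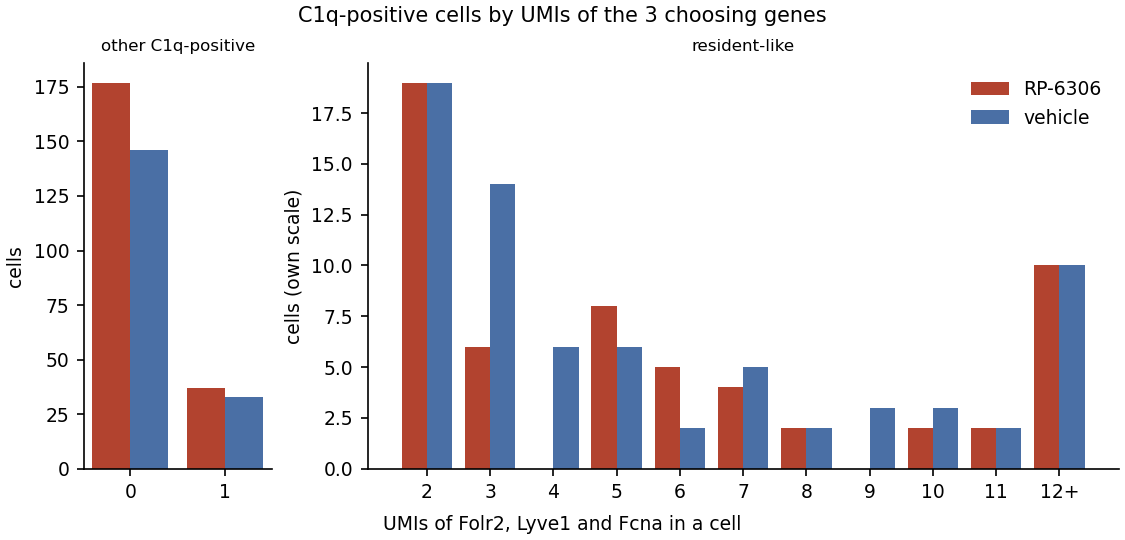
C1q-positive cells (y axis, number of cells) by the summed UMIs of Folr2, Lyve1 and Fcna in the cell (x axis), in the RP-6306 and vehicle libraries. The left panel holds the cells outside the rule and the right panel, on its own scale, the members; 19 cells in each library have 2 UMIs and 10 in each have 12 or more.

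The 3 choosing genes were often seen in the same cells. All 3 were detected in 20 of 58 members in RP-6306 and 19 of 72 in vehicle, and 2 of them in 25 members in RP-6306 and 31 in vehicle. Of the members with 1 of these genes, 10 in RP-6306 and 18 in vehicle had Fcna alone and 3 in each library had Folr2 alone. Lyve1 alone was seen in 1 vehicle cell and in no RP-6306 cell. Lyve1 was the sparsest. It was detected in 44.8% of members in RP-6306 (26 of 58, Clopper-Pearson interval 31.7 to 58.5%) and 31.9% in vehicle (23 of 72, 21.4 to 44.0%). Folr2 was found in 77.6% of members in RP-6306 and 72.2% in vehicle, and Fcna in 89.7% of members in RP-6306 and 91.7% in vehicle. When each cell was thinned to 2000 UMIs, Lyve1 remained in 25.5% of the 55 members left in RP-6306 and 17.1% of the 70 left in vehicle. In keratin-positive cells, which should lack the gene, it was found at the same depth in 0.0788% of 5078 cells in RP-6306 and 0.0392% of 5103 in vehicle. Lyve1 UMIs helped to choose the members, so these shares are a description.

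Of the 5 genes that mark these cells, Folr2 (ENSMUSG00000032725, chromosome 7, 101839988 to 101857194), Lyve1 (ENSMUSG00000030787, chromosome 7, 110850607 to 110863239) and Fcna (ENSMUSG00000026938, chromosome 2, 25624666 to 25628030) chose the cells, so their levels are a description. Positions are those of GENCODE M21 on GRCm38, and all 5 are protein-coding genes. Lyve1, the hyaluronan receptor, reached 238 CPM (192 to 293) in RP-6306 and 204 CPM (167 to 248) in vehicle resident-like cells. In the other C1q-positive cells it was at 0.995 CPM in RP-6306 and 1.08 CPM in vehicle, from 1 UMI in each library. Folr2, which binds folate, was at 281 CPM in resident-like cells against 13.9 CPM in the others in RP-6306, and 226 against 4.31 CPM in vehicle. Fcna, the lectin ficolin A, which recognises sugars on microbes, was the most abundant of the 3 at 578 CPM in resident-like cells against 21.9 CPM in the others in RP-6306, and 514 against 30.2 CPM in vehicle. The rule did not count UMIs of the other 2 genes. Ccl8, a chemokine for monocytes and lymphocytes (chromosome 11, 82115185 to 82116799), reached 278 CPM (228 to 337) in RP-6306 and 319.6 CPM (272 to 373) in vehicle resident-like cells. In the others it was at 31.9 CPM in RP-6306 and 17.3 CPM in vehicle. Gas6, a bridging ligand between dying cells and the receptors Mertk and Axl (chromosome 8, 13465374 to 13494490), was at 236 CPM in resident-like cells against 42.8 CPM in the others in RP-6306, and 197 against 18.3 CPM in vehicle. Ccl8 was unevenly spread: 20 of 58 members in RP-6306 and 23 of 72 in vehicle had a UMI of it, and single cells held up to 22 UMIs in RP-6306 and 31 in vehicle. Gas6 was found in 38 members in RP-6306 and 40 in vehicle.

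**Figure D2:**
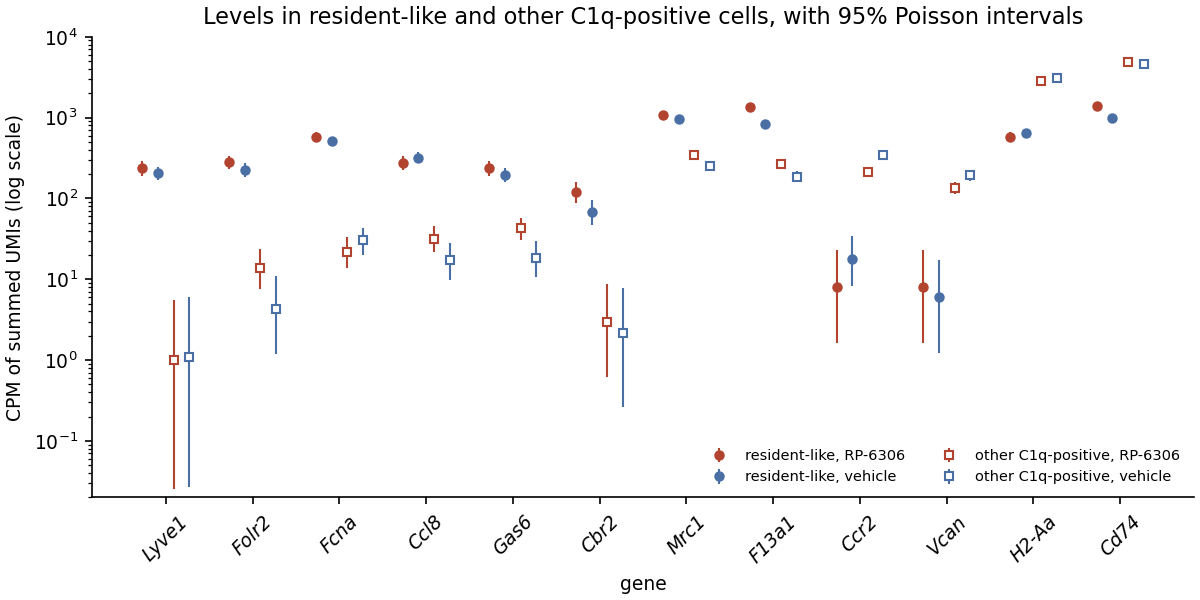
CPM of summed UMIs (y axis, log scale) for 12 genes (x axis) in resident-like cells (filled circles) and other C1q-positive cells (open squares) of the RP-6306 (red) and vehicle (blue) libraries; lines are 95% Poisson intervals. The 8 genes from Lyve1 to F13a1 stand higher in resident-like cells of both libraries and the 4 from Ccr2 to Cd74 lower.

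The label was checked against marker genes of other cell types. In the other C1q-positive cells, 16 T and NK cell markers summed to 7.96 CPM in RP-6306 and 9.71 CPM in vehicle. In resident-like cells they summed to 18.5 CPM in RP-6306 and 7.94 CPM in vehicle, with 14 of 16 at 0 in each library. Markers of B cells (9 of 10 at 0 in each library) and of mast cells and basophils (8 of 9 at 0) each summed to 2.65 CPM in RP-6306 and 3.97 CPM in vehicle. Blood endothelial markers summed to 21.2 CPM in RP-6306 (8 of 12 at 0) and 35.7 CPM in vehicle (5 of 12 at 0). Lyve1 also marks lymphatic endothelium. The 6 listed lymphatic markers summed to 11.9 CPM in the other C1q-positive cells of each library. In resident-like cells only Pdpn, which macrophages can express, had a UMI, at 55.6 CPM in RP-6306 and 29.8 CPM in vehicle. Prox1, Flt4, Ccl21a, Mmrn1 and Reln were at 0 in resident-like cells of both libraries. The neutrophil list came to 1256 CPM in RP-6306 and 1344 CPM in vehicle, nearly all of it Mmp9. Without Mmp9 it came to 37.1 CPM in resident-like cells against 91.6 CPM in the others in RP-6306, and 21.8 against 74.4 CPM in vehicle. Dendritic cell markers summed to 60.9 CPM in resident-like cells against 108.5 CPM in the others in RP-6306, and 81.4 against 110.02 CPM in vehicle; 10 of 14 in RP-6306 and 8 of 14 in vehicle were at 0 in resident-like cells. Tumour epithelial markers summed to 183 CPM in resident-like cells against 206 CPM in the others in RP-6306, and 202 against 214 CPM in vehicle. Of these, 5 of 16 in RP-6306 and 6 of 16 in vehicle were at 0 in resident-like cells. The epithelial list includes Krt8 and Krt18, which the rule limited in both populations. Fibroblast markers stood apart between the libraries, at 87.4 CPM in RP-6306 (6 of 12 at 0) and 750.4 CPM in vehicle (0 of 12 at 0), and 1 vehicle cell held 279 of the 378 fibroblast UMIs of that library. Without that cell the vehicle sum was 200.2 CPM. In the other C1q-positive cells fibroblast markers summed to 151 CPM in RP-6306 and 169 CPM in vehicle. All 12 markers of macrophages were detected, and 9 were higher in resident-like than in other C1q-positive cells of both libraries. These 12 include C1qa, C1qb and C1qc, which the rule required, so their detection is no check of the label.

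Some genes that define resident macrophages elsewhere were not detected. Timd4, a receptor for dying cells on long-lived resident macrophages, and Retnla, a gene of alternatively activated macrophages, had no UMI in 130 members, for which the Clopper-Pearson upper limit is 6.16% of cells in RP-6306 and 4.99% in vehicle and a limit of 3 counts gives 5.17% in RP-6306 and 4.17% in vehicle. Cd209f and Cd209g, lectins of perivascular and skin macrophages in mice, had none either. Among other resident macrophage genes that the rule did not use, Mrc1 had a UMI in 53 of 58 members in RP-6306 and 68 of 72 in vehicle. Cd163 had one in 7 of 58 in RP-6306 and 10 of 72 in vehicle. Mrc1 was also present in the other C1q-positive cells, at the lower levels given below.

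Promoter sequences are shown for Fcna and Ccl8, the most abundant choosing gene and the most abundant marker that the rule did not use, because macrophage genes often carry sites for PU.1, the factor that macrophages depend on, and for MAF proteins. They are the 250 bases before each gene's start, 5′ to 3′ on the gene's strand, from RefSeq on GRCm38.p6: chr2:25627975-25628224 (minus strand) and chr11:82114935-82115184 (plus strand). Capitals mark the PU.1 core GAGGAA and the MAF core TGCTGAC on either strand.
Fcna: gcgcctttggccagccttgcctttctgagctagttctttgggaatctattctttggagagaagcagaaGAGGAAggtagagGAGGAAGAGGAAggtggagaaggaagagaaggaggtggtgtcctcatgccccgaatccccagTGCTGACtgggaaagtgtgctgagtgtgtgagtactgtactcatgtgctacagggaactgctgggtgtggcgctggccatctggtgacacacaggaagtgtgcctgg
Ccl8: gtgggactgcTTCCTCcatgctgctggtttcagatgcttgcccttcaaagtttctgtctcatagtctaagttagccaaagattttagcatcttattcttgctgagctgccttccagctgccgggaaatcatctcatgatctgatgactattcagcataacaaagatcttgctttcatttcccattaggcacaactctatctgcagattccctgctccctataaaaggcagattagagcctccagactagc
The Fcna promoter held 3 PU.1 cores and 1 MAF core, with no overlap between matches, and the Ccl8 promoter held 1 PU.1 core and no MAF core. Of the 15 genes named as higher in resident-like cells, 12 matched an entry of the table. In these windows a PU.1 core was present in 5 and a MAF core in 2. Over all 27025 genes with a promoter, 25.9% held the PU.1 core and 4.31% the MAF core. A match describes letters in a window and is no site of binding.

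Resident-like cells were a smaller part of the C1q-positive cells in RP-6306, with an interval of the difference that includes 0. They were 21.3% of C1q-positive cells in RP-6306 (58 of 272, Clopper-Pearson interval 16.6 to 26.7%) and 28.7% in vehicle (72 of 251, 23.2 to 34.7%), a difference of -7.36 percentage points (-15.0 to 0.322). C1q-positive cells were 2.64% of the barcodes that passed the gene and mitochondrial limits in RP-6306 and 2.63% in vehicle. With every C1q-positive cell thinned to 2000 UMIs, resident-like cells were 12.8% (30 of 235, 8.78 to 17.7%) in RP-6306 and 14.3% (32 of 224, 9.98 to 19.6%) in vehicle, a difference of -1.52 points (-8.13 to 5.04). Members were deeper in vehicle, and the difference was smaller at equal depth. Without cells that held 2 or more marker UMIs of other types its sign turned, at 2.16 points (-6.62 to 10.6), with 17 members left in RP-6306 and 12 in vehicle.

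Across the transcriptome, the contrast with the other C1q-positive cells is the one that the rule drew, so the values describe the cells and were not tested. Of 3172 genes with at least 100 UMIs over the 4 sums and 50 CPM in the higher population of each library, 65 (2.05%) were at least 2-fold higher in resident-like cells in both libraries and 44 (1.39%) at least 2-fold lower. With TMM scaling by edgeR the split was 49 higher against 57 lower, and all genes then had a median log2 ratio of -0.07 in RP-6306 and -0.02 in vehicle, in place of 0.05 in each without it. Over all 3172 genes, 38.4% were higher in both libraries and 29.1% lower in both, the background for the counts of each list below. The list medians given below kept their sign under TMM scaling unless another value is given. Beside the 5 markers, 10 genes had the largest differences, ranked by the smaller of the 2 libraries' values. Fcrls, an Fc receptor-like protein, was at 164 CPM in resident-like cells against 22.9 CPM in the others in RP-6306, and 107 against 17.3 CPM in vehicle. Stab1, a scavenger receptor for modified lipoproteins, was at 326 CPM in resident-like cells against 61.7 CPM in the others in RP-6306, and 324 against 37.8 CPM in vehicle. Fcgrt, the neonatal Fc receptor that recycles IgG and albumin, was at 479.6 CPM in resident-like cells against 78.6 CPM in the others in RP-6306, and 351 against 70.1 CPM in vehicle. All 3 stood higher by 4-fold or more in each library. F13a1, a subunit of coagulation factor XIII, was among the most abundant, at 1335 CPM in resident-like cells against 265 CPM in the others in RP-6306, and 824 against 186 CPM in vehicle. Mmp9, a matrix metalloproteinase, was at 1219 CPM in resident-like cells against 338 CPM in the others in RP-6306, and 1322 against 266 CPM in vehicle, but 1 RP-6306 cell held 168 of 460 UMIs, and without it the RP-6306 level was 803 CPM.

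A further 5 genes completed the higher group, with log2 ratios from 1.97 to 3.41. Hgsnat, a lysosomal enzyme that breaks down heparan sulfate, was at 143 CPM in resident-like cells against 32.9 CPM in the others in RP-6306, and 165 against 38.8 CPM in vehicle. Ms4a7, a membrane protein of macrophages, was at 215 CPM in resident-like cells against 51.8 CPM in the others in RP-6306, and 151 against 30.2 CPM in vehicle. Npl, an enzyme that degrades sialic acid, was at 183 CPM in resident-like cells against 45.8 CPM in the others in RP-6306, and 216 against 19.4 CPM in vehicle. Ltc4s, the synthase of leukotriene C4, was at 92.7 CPM in resident-like cells against 22.9 CPM in the others in RP-6306, and 89.3 against 17.3 CPM in vehicle. Ccdc152 was at 76.8 CPM in resident-like cells against 15.9 CPM in the others in RP-6306, and 95.3 against 9.71 CPM in vehicle. It overlaps Selenop on the opposite strand, and whether any of its counts came from that gene was not tested. Selenop, which encodes the plasma selenium carrier, was itself at 938 CPM in resident-like cells against 217 CPM in the others in RP-6306, and 739 against 232 CPM in vehicle.

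**Figure D3:**
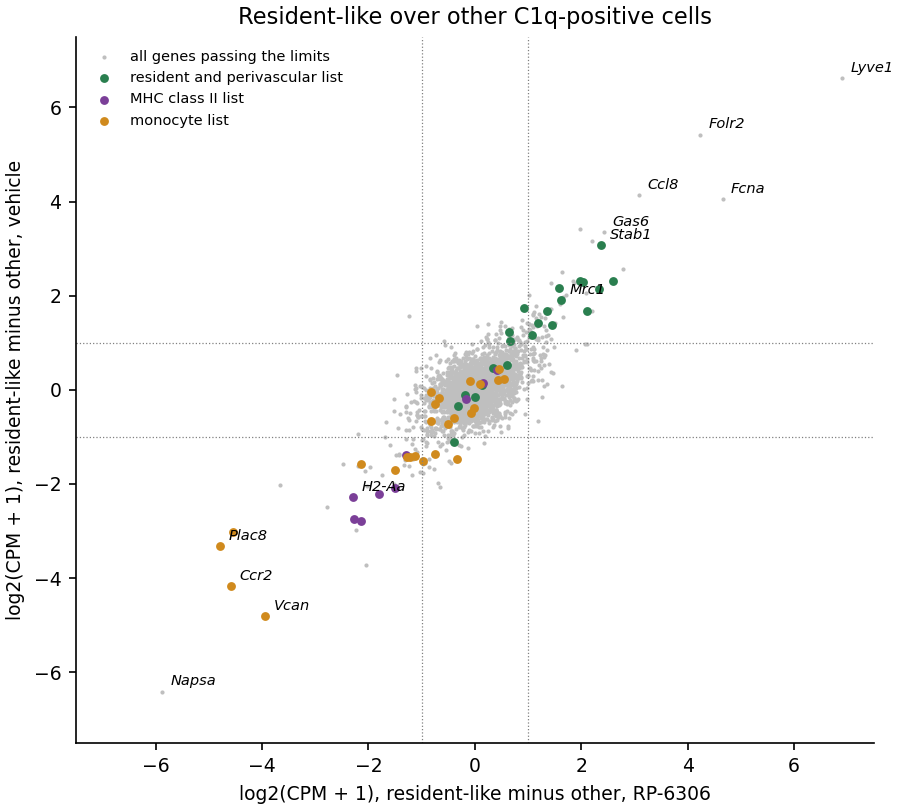
Difference in log2(CPM + 1) between resident-like and other C1q-positive cells in the RP-6306 library (x axis) and the vehicle library (y axis), for the 3172 genes that passed the limits; dotted lines mark 2-fold. The resident and perivascular genes (green) lie mostly at the upper right, and MHC class II (purple) and monocyte genes (orange) mostly at the lower left.

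Of 42 other genes of resident and perivascular macrophages, 22 passed the limits, of which 18 were higher in resident-like cells of both libraries, 3 lower in both and 12 at least 2-fold higher. The median log2 ratio was 1.14 in RP-6306 and 1.40 in vehicle, against 0.05 in each library for all genes tested. Mrc1, the mannose receptor, was at 1068 CPM in resident-like cells against 345 CPM in the others in RP-6306, and 949 against 252 CPM in vehicle. Pf4, a chemokine made by platelets and some macrophages, was at 1836 CPM in resident-like cells against 614 CPM in the others in RP-6306, and 1856 against 413 CPM in vehicle. Maf, the transcription factor c-Maf, was at 901 CPM in resident-like cells against 395 CPM in the others in RP-6306, and 806 against 299 CPM in vehicle. The 3 lower genes were the transcription regulators Klf2, Klf4 and Id3. Klf4 was at 493 CPM in resident-like cells against 645 CPM in the others in RP-6306, and 379 against 818 CPM in vehicle. Genes under the UMI limit were also higher here. Cbr2, a carbonyl reductase, was at 119 CPM in resident-like cells against 2.99 CPM in the others in RP-6306, and 67.5 against 2.16 CPM in vehicle. Cd163, the receptor for haemoglobin bound to haptoglobin, was at 45.04 CPM in resident-like cells against 1.99 CPM in the others in RP-6306, and 43.7 against 1.08 CPM in vehicle. Ednrb, an endothelin receptor, was at 143 CPM in resident-like cells against 4.98 CPM in the others in RP-6306, and 41.7 against 1.08 CPM in vehicle. Igf1, a growth factor, was at 31.8 CPM in resident-like cells against 1.99 CPM in the others in RP-6306, and 15.9 against 0 CPM in vehicle. These levels rested on 8 to 54 UMIs for each library.

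Endocytic receptor and complement genes were mostly higher, whereas genes of apoptotic cell uptake were closer to the shares of all genes. Among 20 endocytic and scavenger receptor genes that passed, 13 were higher in both libraries and 5 lower, with a median of 0.46 in RP-6306 and 0.25 in vehicle; without the choosing genes it was 11 and 5 of 18, with medians of 0.39 in RP-6306 and 0.17 in vehicle. Msr1, scavenger receptor A, was at 424 CPM in resident-like cells against 258 CPM in the others in RP-6306, and 492 against 294 CPM in vehicle. Clec7a, the glucan receptor dectin-1, was lower at 87.4 CPM in resident-like cells against 167 CPM in the others in RP-6306, and 103 against 165 CPM in vehicle. All 6 complement genes that passed were higher in both libraries, with a median of 0.58 in RP-6306 and 0.75 in vehicle, though C1qa, C1qb and C1qc belong to the rule. C3ar1, the receptor for complement fragment C3a, was at 257 CPM in resident-like cells against 117 CPM in the others in RP-6306, and 216 against 126 CPM in vehicle. C5ar1, for C5a, was at 448 CPM in resident-like cells against 303 CPM in the others in RP-6306, and 423 against 220.0 CPM in vehicle. Among 11 genes of apoptotic cell uptake, 6 were higher in both libraries and 3 lower (5 and 3 with TMM scaling). Their median was 0.25 in RP-6306 and 0.19 in vehicle. Over all genes 38.4% were higher in both libraries and 29.1% lower. Mertk, a Gas6 receptor, was at 87.4 CPM in resident-like cells against 66.7 CPM in the others in RP-6306, and 73.5 against 49.6 CPM in vehicle. Axl, its other receptor, was at 92.7 CPM in resident-like cells against 97.6 CPM in the others in RP-6306, and 91.3 against 101 CPM in vehicle. Cd300lf, a lipid receptor, was lower at 42.4 CPM in resident-like cells against 120.5 CPM in the others in RP-6306, and 39.7 against 105 CPM in vehicle. Gas6 differed more between the populations than either receptor. It is one of the 5 genes that mark these cells, so this is a description and no comparison of ligand with receptors.

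Iron handling was split. Of 10 haem and iron genes that passed, 6 were higher in both libraries and 3 lower, with a median of 0.16 in RP-6306 and 0.30 in vehicle. Hmox1, the enzyme that opens haem, was at 562 CPM in resident-like cells against 287 CPM in the others in RP-6306, and 431 against 182 CPM in vehicle. Blvrb, a biliverdin reductase, was at 273 CPM in resident-like cells against 152 CPM in the others in RP-6306, and 232 against 111 CPM in vehicle. Trf, transferrin, was at 689 CPM in resident-like cells against 262 CPM in the others in RP-6306, and 544 against 372 CPM in vehicle. The iron exporter Slc40a1, with 33 UMIs in RP-6306 and 47 in vehicle, was at 87.4 CPM in resident-like cells against 7.96 CPM in the others in RP-6306, and 93.3 against 3.24 CPM in vehicle. The ferritin heavy chain Fth1 did not share this, at 9922 CPM in resident-like cells against 10347 CPM in the others in RP-6306, and 7155 against 8639.6 CPM in vehicle, and 1 RP-6306 cell held 414 of its 3745 UMIs. Of 26 lipid and lysosome genes, 18 were higher in both libraries and 5 lower, with a median of 0.36 in RP-6306 and 0.28 in vehicle. Apoe, the lipoprotein, was at 7469 CPM in resident-like cells against 3339.8 CPM in the others in RP-6306, and 5449.6 against 2592 CPM in vehicle. Cd63, a lysosomal membrane protein, was at 1465 CPM in resident-like cells against 515 CPM in the others in RP-6306, and 1342 against 498 CPM in vehicle. Ctsb, the protease cathepsin B, was at 3092 CPM in resident-like cells against 1638 CPM in the others in RP-6306, and 2976 against 1322 CPM in vehicle. Trem2, a lipid receptor of tumour and fat macrophages, was at 180.2 CPM in resident-like cells against 113 CPM in the others in RP-6306, and 187 against 136 CPM in vehicle. Spp1, osteopontin, was at 1118 CPM in resident-like cells against 1171 CPM in the others in RP-6306, and 1106 against 1564 CPM in vehicle.

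Chemokines that draw monocytes were higher in these cells. Of 15 chemokine genes that passed, 9 were higher in both libraries, 2 lower, 5 at least 2-fold higher and 1 at least 2-fold lower, with a median of 0.63 in RP-6306 and 0.79 in vehicle. The genes Ccl2, Ccl7, Ccl12 and Ccl8 lie together on chromosome 11, between 82035571 and 82116799, and all 4 were at least 2-fold higher in both libraries. Ccl12 was at 4080.3 CPM in resident-like cells against 1249 CPM in the others in RP-6306, and 3127 against 779 CPM in vehicle. Ccl2 was at 2952 CPM in resident-like cells against 1365 CPM in the others in RP-6306, and 2877 against 916 CPM in vehicle. Ccl7 was at 2809 CPM in resident-like cells against 1050.2 CPM in the others in RP-6306, and 2412 against 730.2 CPM in vehicle. The fifth gene past 2-fold was Pf4. Ccl5, which draws T cells, was the gene that was lower, at 5.30 CPM in resident-like cells against 78.6 CPM in the others in RP-6306, and 23.8 against 99.2 CPM in vehicle. Ccl24, an eosinophil chemokine, was lower by less, at 204 CPM in resident-like cells against 363 CPM in the others in RP-6306, and 292 against 504 CPM in vehicle. Growth factor and cytokine genes were near the shares of all genes, with 5 of 11 higher in both libraries and 3 lower, with medians of 0.10 in RP-6306 (-0.23 with TMM scaling) and 0.04 in vehicle. Il1b, the inflammatory cytokine, was at 1243 CPM in resident-like cells against 2695 CPM in the others in RP-6306, and 917 against 2418 CPM in vehicle. Osm, oncostatin M, was at 241 CPM in resident-like cells against 425 CPM in the others in RP-6306, and 220.4 against 428 CPM in vehicle. Pdgfb, a growth factor for vessel pericytes, with 17 UMIs in RP-6306 and 53 in vehicle, was at 45.04 CPM in resident-like cells against 18.9 CPM in the others in RP-6306, and 105 against 31.3 CPM in vehicle.

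Monocyte genes were lower. Of 25 genes of monocytes and recruited macrophages that passed, 20 were lower in both libraries, 4 higher, and 9 at least 2-fold lower, with a median of -0.76 in RP-6306 and -0.72 in vehicle. Ccr2 (chromosome 9, 124101950 to 124113557) had 3 UMIs in RP-6306 and 9 in vehicle resident-like cells, or 7.95 CPM (1.64 to 23.2) in RP-6306 and 17.9 CPM (8.17 to 33.9) in vehicle. In the others it was at 212 CPM in RP-6306 and 339.8 CPM in vehicle. Plac8, a gene of monocytes, was at 15.9 CPM in resident-like cells against 466 CPM in the others in RP-6306, and 29.8 against 306 CPM in vehicle, with 11 of the 15 vehicle UMIs in 1 member. Vcan, a matrix proteoglycan made by monocytes, was at 7.95 CPM in resident-like cells against 136 CPM in the others in RP-6306, and 5.96 against 193 CPM in vehicle. Chil3, a chitinase-like protein, was at 2.65 CPM in resident-like cells against 84.6 CPM in the others in RP-6306, and 9.93 against 87.4 CPM in vehicle. Thbs1, thrombospondin, was at 389 CPM in resident-like cells against 1099 CPM in the others in RP-6306, and 339 against 1103 CPM in vehicle. Fn1, fibronectin, was at 397 CPM in resident-like cells against 781 CPM in the others in RP-6306, and 524 against 1494 CPM in vehicle. Arg1, which breaks down arginine, went the other way, at 464 CPM in resident-like cells against 342 CPM in the others in RP-6306, and 598 against 518 CPM in vehicle. Napsa, an aspartic protease, had no UMI in resident-like cells of either library, and was at 57.7 CPM in RP-6306 and 84.1 CPM in vehicle in the others. The remaining lower genes named by the rule and not in the monocyte or MHC class II lists were Gpr141, Il1r2, Ear2, Bri3bp, Sorl1, Cytip and Lsp1. Of these Il1r2, the decoy receptor for interleukin 1, was at 31.8 CPM in resident-like cells against 153 CPM in the others in RP-6306, and 11.9 against 100.3 CPM in vehicle. Cytip, a regulator of leukocyte adhesion, was at 58.3 CPM in resident-like cells against 247 CPM in the others in RP-6306, and 45.7 against 153 CPM in vehicle.

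MHC class II was low in most resident-like cells. Of 9 genes of the MHC class II list that passed, 7 were lower in both libraries and 6 at least 2-fold lower, with a median of -1.51 in RP-6306 and -2.09 in vehicle. H2-Aa (chromosome 17, 34282744 to 34287823), an alpha chain of the complex, was at 583 CPM in resident-like cells against 2853 CPM in the others in RP-6306, and 645 against 3123 CPM in vehicle. H2-Eb1 was at 564 CPM in resident-like cells against 2728 CPM in the others in RP-6306, and 383 against 2589 CPM in vehicle. H2-Ab1 was at 408 CPM in resident-like cells against 1809.8 CPM in the others in RP-6306, and 232 against 1615 CPM in vehicle. The invariant chain Cd74 was at 1404 CPM in resident-like cells against 4909.7 CPM in the others in RP-6306, and 1003 against 4623 CPM in vehicle. The costimulatory ligand Cd86 did not share this, at 180.2 CPM in resident-like cells against 162 CPM in the others in RP-6306, and 163 against 148 CPM in vehicle. Ifi30, a reductase that prepares antigens, was higher at 1425 CPM in resident-like cells against 1064 CPM in the others in RP-6306, and 1369.8 against 1024 CPM in vehicle. A UMI of H2-Aa was found in 24 of 58 members against 176 of 214 others in RP-6306, and 24 of 72 against 139 of 179 in vehicle. In cells thinned to 2000 UMIs these shares were 30.9% against 82.5% in RP-6306, and 24.3% against 75.7% in vehicle.

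The class II signal of the members came from few cells, many of them near the limit of the rule. UMIs of H2-Aa, H2-Ab1, H2-Eb1 and Cd74 had a median of 6.58 per 10000 UMIs of a cell in members against 111 in the others in RP-6306, and 1.83 against 100.2 in vehicle. The 10 cells with most of these UMIs held 77.2% of the members' total in RP-6306 and 77.9% in vehicle, and 7 of the 10 in each library had 2 or 3 choosing UMIs. The 25 members with 2 or 3 choosing UMIs in RP-6306 held 562 of 1117 class II UMIs, and the 33 in vehicle held 827 of 1140. More than 100 per 10000 was reached by 8 of 58 members against 116 of 214 others in RP-6306, and 3 of 72 against 90 of 179 in vehicle. Ccr2 had a UMI in 2 members in RP-6306 and 3 in vehicle.

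Members with and without a Lyve1 UMI differed in several other genes. The split is a description, since Lyve1 helped to choose the cells and its detection depends on depth. In RP-6306 26 members had Lyve1 (median depth 5618 UMIs) and 32 did not (5965 UMIs), and in vehicle 23 did (6708 UMIs) and 49 did not (6125 UMIs). Cbr2 was at 243 CPM with Lyve1 against 27.6 CPM without in RP-6306, and 153 against 26.5 CPM in vehicle. Cd163 was at 93.6 CPM with Lyve1 against 9.21 CPM without in RP-6306, and 91.6 against 20.6 CPM in vehicle. Ednrb was at 337 CPM with Lyve1 in RP-6306, where cells without it had no UMI, and at 109.9 against 8.83 CPM in vehicle. The secreted products Ccl8, Gas6 and Selenop showed the same direction. Ccl8 was at 406 CPM with Lyve1 against 184 CPM without in RP-6306, and 562 against 203 CPM in vehicle. Gas6 was at 368 CPM with Lyve1 against 138 CPM without in RP-6306, and 336 against 129 CPM in vehicle. Selenop was at 1380 CPM with Lyve1 against 612 CPM without in RP-6306, and 1129 against 550.2 CPM in vehicle. Cbr2, Cd163, Ednrb, Ccl8, Gas6 and Selenop were thus higher with Lyve1 in each library, Cd163 from 15 against 2 UMIs in RP-6306. They were picked from the genes measured for this split, and no share over all genes is given for it. Ccl12, Spp1 and Trem2 changed direction between libraries. Ccl12 was at 3758 CPM with Lyve1 against 4318 CPM without in RP-6306, and 3534 against 2930 CPM in vehicle. Spp1 was at 1629 against 741 CPM in RP-6306, and 1056 against 1130 CPM in vehicle. Ccr2 had no UMI in cells with Lyve1 in either library, whereas cells without it held 3 UMIs in RP-6306 and 9 in vehicle. Arg1 was lower with Lyve1, at 293 CPM against 589 CPM without in RP-6306, and 366 against 709 CPM in vehicle. C1qa was closer, at 4482 CPM with Lyve1 against 4345 CPM without in RP-6306, and 4511 against 3807 CPM in vehicle.

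MHC class II values of members with Lyve1 differed between the libraries. In RP-6306 the 26 members with Lyve1 held 474 UMIs of the 4 class II genes, 469 of them in 10 cells, with H2-Aa at 618 CPM, against 643 UMIs and 557 CPM in the 32 without. In vehicle the 23 members with Lyve1 held 24 such UMIs in all, with H2-Aa at 24.4 CPM, against 1116 UMIs and 944 CPM in the 49 without. The median per cell was 0.688 per 10000 UMIs with Lyve1 against 8.20 without in RP-6306, and 0 against 4.57 in vehicle. The highest cell with Lyve1 reached 173 per 10000 in RP-6306 and 10.4 in vehicle. In RP-6306 the 11 members with 1 Lyve1 UMI held 341 of the 474 class II UMIs, the 6 with 2 held 103 and the 9 with 3 or more held 30. In vehicle the 8 with 1 held 9, the 2 with 2 held 0 and the 13 with 3 or more held 15. In RP-6306 the members with 1 Lyve1 UMI thus carried most of the class II sum of the members with Lyve1. The highest of them, at 173 per 10000 of its 10222 UMIs, had 27 choosing UMIs and so was not near the limit of the rule. The difference between the libraries was not tested.

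**Figure D4:**
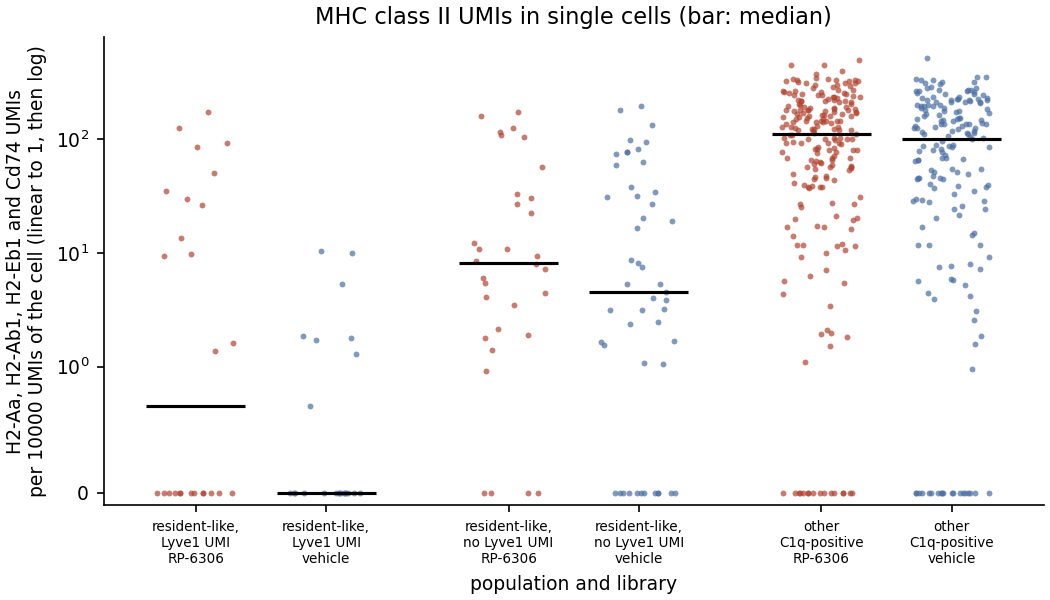
UMIs of H2-Aa, H2-Ab1, H2-Eb1 and Cd74 per 10000 UMIs of the cell (y axis, linear to 1 and logarithmic above) in single cells, for members with a Lyve1 UMI, members without, and other C1q-positive cells, RP-6306 and vehicle (x axis); black bars are medians. The vehicle members with Lyve1 stay at or under 10.4, while the RP-6306 members with Lyve1 reach 173.

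Proliferation genes were somewhat higher in resident-like cells. Of 17 cell cycle genes that passed, 14 were higher in both libraries and 0 lower in both, with a median of 0.65 in RP-6306 and 0.60 in vehicle. Mki67, a marker of cycling cells, was at 148 CPM in resident-like cells against 88.6 CPM in the others in RP-6306, and 161 against 75.5 CPM in vehicle. Birc5, survivin, was at 185 CPM in resident-like cells against 104 CPM in the others in RP-6306, and 222 against 138 CPM in vehicle. A Mki67 UMI was found in 20.7% of members against 16.8% of the others in RP-6306, and 31.9% against 15.6% in vehicle. After thinning to 2000 UMIs it was found in 12.7% of members, 9.79% of the others and 8.94% of keratin-positive tumour cells in RP-6306, and in 10% of members, 5.92% of the others and 8.43% of keratin-positive cells in vehicle. The part of free tumour RNA in the cell cycle values was not tested. Immediate-early and heat shock genes, which tissue dissociation can raise, were lower in both libraries for 15 of 21 and higher for 1, with a median of -0.31 in RP-6306 and -0.25 in vehicle. Btg2, a growth inhibitor of this group, was at 522 CPM in resident-like cells against 1277 CPM in the others in RP-6306, and 699 against 1453 CPM in vehicle. Among 23 genes of the M-CSF receptor and macrophage transcription factors, 8 were higher in both libraries and 12 lower. Csf1r, the M-CSF receptor, was at 246 CPM in resident-like cells against 181 CPM in the others in RP-6306, and 216 against 214 CPM in vehicle. Bhlhe40, a transcription factor, was lower at 45.04 CPM in resident-like cells against 137 CPM in the others in RP-6306, and 91.3 against 208 CPM in vehicle. Of 17 hypoxia and glycolysis genes 12 were lower in both libraries and 2 higher, none of them 2-fold, and of 10 checkpoint and suppressive genes 5 were higher and 4 lower.

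Within resident-like cells, few genes differed between the treatments by 2-fold. Of 1449 genes with at least 100 UMIs over both sums and 50 CPM in the higher library, 4 (0.276%) were at least 2-fold higher in RP-6306 and 7 (0.483%) at least 2-fold lower. In the other C1q-positive cells it was 7 (0.238%) higher and 1 (0.034%) lower of 2944. Of these 11 genes, 6 had a large part of their UMIs in single cells. Acp5, the acid phosphatase of osteoclasts and macrophages, was at 739 CPM in RP-6306 and 201 CPM in vehicle, but 1 RP-6306 cell held 200 of the 279 UMIs, and without both single cells described here the levels were 217 CPM in RP-6306 and 204 CPM in vehicle. The same cell held 158 of 158 UMIs of Ctsk, the osteoclast protease cathepsin K, with 11 UMIs of Atp6v0d2, 13 of Nfatc1 and 6 of Oscar, all known from osteoclasts, beside 3 UMIs of the choosing genes and 52 of C1q. Saa3, an acute-phase protein, was at 169.6 CPM in RP-6306 and 77.4 CPM in vehicle, with 48 of 64 RP-6306 UMIs in 1 cell. Col1a1, Col3a1 and Sparc, matrix genes, were lower in RP-6306, and the vehicle cell with most fibroblast UMIs held 102 of 131, 82 of 137 and 45 of 106 UMIs of them.

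Without the RP-6306 cell richest in Ctsk and the vehicle cell richest in Col1a1, 4 genes passed 2-fold, 2 in each direction, an alternative added after the data were seen. Col1a1 and Col3a1 were then under the limit of 100 UMIs, with log2 ratios of -1.37 for Col1a1 and -1.41 for Col3a1. Ybx3, a protein that binds DNA and RNA, was at 106 CPM in RP-6306 and 228 CPM in vehicle members, a log2 ratio of -1.10 in resident-like cells and -0.67 in the others. Clk1, a kinase of splicing factors, was at 98.03 CPM in RP-6306 and 204 CPM in vehicle members, a ratio of -1.05 in resident-like cells and -0.26 in the others. Hspa1a, the inducible heat shock protein 70, was at 596 CPM in RP-6306 and 1199 CPM in vehicle members, a ratio of -1.01 in resident-like cells (-0.99 without the 2 cells) and -0.54 in the others. It is nearly identical to Hspa1b, so its count is uncertain. These 3 genes were lower in RP-6306 in both populations. Id3, the remaining one of the 7, was at 76.8 CPM in RP-6306 and 159 CPM in vehicle, a ratio of -1.04, or -0.88 without the 2 cells. On the higher side AW112010, an interferon-responsive transcript, was at 262 CPM in RP-6306 and 87.4 CPM in vehicle, a log2 ratio of 1.58, with 22 of 99 RP-6306 UMIs in 1 cell; in vehicle its level was under 0.1 of the 1173 CPM of gated T cells, so the naming rule leaves it out and it was chosen after its values were seen.

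Between treatments the log2 ratio of RP-6306 over vehicle was 0.31 for Folr2, 0.22 for Lyve1, 0.17 for Fcna, -0.20 for Ccl8 and 0.26 for Gas6. Folr2, Lyve1 and Fcna chose the members in both libraries, so their ratios are a description. Summed over Ccl8 and Gas6 alone, the ratio was 0.996 (0.823 to 1.20). Of 18 resident and perivascular genes that passed, 15 were higher in RP-6306, with a median of 0.21. Of all genes tested 50.1% were higher, with a median of 0.00018. In the other C1q-positive cells 11 of 16 genes of this list were higher, with a median of 0.28, so the shift was not particular to the members. In resident-like cells F13a1 had a log2 ratio of 0.70 and Clec10a, a lectin, of 0.73. Ednrb, under the UMI limit, had 54 UMIs in RP-6306, 17 of them in 1 cell, and 21 in vehicle.

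Type I interferon genes were higher in RP-6306 in resident-like cells as in the other C1q-positive cells. These genes are switched on by interferon alpha and beta and encode antiviral proteins. Of 45 listed genes, 5 passed the limits in resident-like cells and all 5 were higher, with a median log2 ratio of 0.65; in the other C1q-positive cells 12 passed, all higher, with a median of 0.76. With a minimum of 10 UMIs, 31 of 34 were higher in resident-like cells, with a median of 0.83. Over all genes at that minimum, 3889 of 7770 were higher, with a median of 0.001. The list added up to 4237 CPM in RP-6306 and 3026 CPM in vehicle resident-like cells, whose ratio was 1.40 (1.30 to 1.503). In the other C1q-positive cells it added up to 5183 CPM in RP-6306 and 3796 CPM in vehicle, whose ratio was 1.37 (1.31 to 1.43). Ifi27l2a, whose protein sits in mitochondria, reached 554 CPM (481 to 634) in RP-6306 and 308 CPM (261 to 360.2) in vehicle resident-like cells, which differ by 0.85 on the log2 scale. Bst2, tetherin, which holds budding virus at the membrane, had 366 CPM in RP-6306 and 232 CPM in vehicle, a difference of 0.65. Ifi204, a DNA sensor, had 169.6 CPM in RP-6306 and 103 CPM in vehicle, a difference of 0.71, with counts that near-identical relatives make uncertain. The other 2 that passed differed less, Trim30a, a regulator of inflammatory signalling, by 0.28 and Ifitm3, which blocks virus entry, by 0.12. When cells were thinned to 2000 UMIs before the rule only 1 gene passed, with a log2 ratio of 0.20. Without cells that held 2 or more marker UMIs of other types 2 genes passed, 1 of them higher, with a median of 0.26. These sets differ from the 5 genes, so their medians and 0.65 are not of the same genes.

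Most genes with fewer UMIs followed the same direction. Isg15, a ubiquitin-like modifier, had 129.8 CPM in RP-6306 and 73.5 CPM in vehicle resident-like cells, with up to 14 of 49 UMIs in 1 RP-6306 cell and 15 of 37 in 1 vehicle cell. Rsad2, viperin, which makes a chain-terminating nucleotide, had 21 UMIs in RP-6306 and 13 in vehicle, and Ifit2, which binds RNA, had 17 in RP-6306 and 4 in vehicle. Mx1, a GTPase against influenza in mice, had 10 UMIs in RP-6306 and none in vehicle. The 3 that were lower were Samd9l (3 UMIs in RP-6306 and 10 in vehicle), Ifih1 (7 in RP-6306 and 17 in vehicle) and Xaf1 (5 in RP-6306 and 7 in vehicle). Per cell, the list without Ifitm3 held a median of 19.2 per 10000 UMIs in RP-6306 and 8.98 in vehicle among members, and of 20.0 in RP-6306 and 9.51 in vehicle among the others. Summed over cells, the interferon list was lower in resident-like cells than in the others, with ratios of 0.817 in RP-6306 and 0.797 in vehicle. The medians per cell were closer than these sums. Without Ifitm3, the highest member reached 150 per 10000 against 212 in the others in RP-6306, and 135 against 279 in vehicle.

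**Figure D5:**
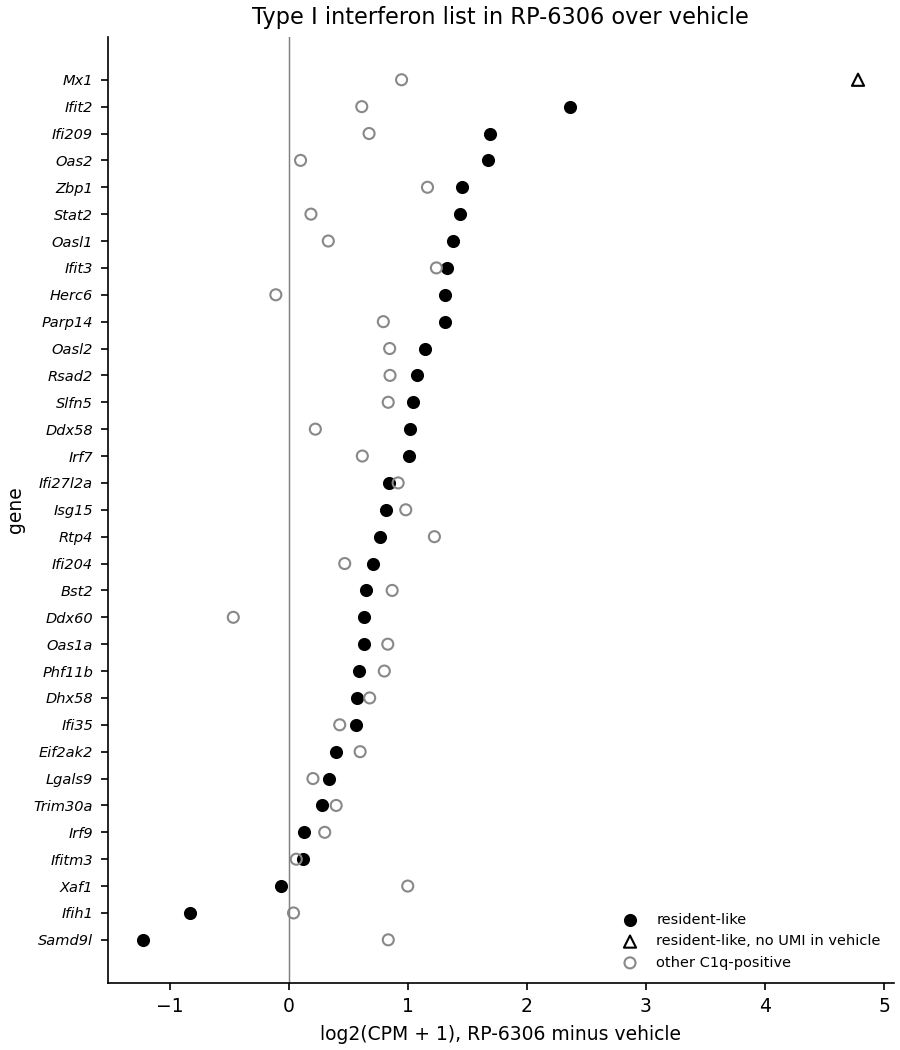
Difference in log2(CPM + 1) between RP-6306 and vehicle (x axis) for 33 of the 34 type I interferon genes with at least 10 UMIs in resident-like cells (y axis), in resident-like cells (filled) and other C1q-positive cells (open circles); the triangle marks Mx1, which had no UMI in vehicle members. In resident-like cells 30 of the 33 genes drawn lie right of 0.

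The promoters of Isg15, which had fewer UMIs, and of Bst2, one of the 5 genes that passed, are shown because their windows hold several copies of the element through which interferon switches genes on. They are again the 250 bases before the start from RefSeq on GRCm38.p6, chr4:156200819-156201068 and chr8:71537473-71537722, both on the minus strand. Capitals mark the interferon-stimulated response element, searched on both strands as GAAA, any 2 bases, and GAAA again.
Isg15: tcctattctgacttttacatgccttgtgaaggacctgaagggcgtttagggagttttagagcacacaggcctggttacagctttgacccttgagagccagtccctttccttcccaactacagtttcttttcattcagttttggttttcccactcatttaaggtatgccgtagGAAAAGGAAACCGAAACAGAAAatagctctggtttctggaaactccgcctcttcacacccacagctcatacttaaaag
Bst2: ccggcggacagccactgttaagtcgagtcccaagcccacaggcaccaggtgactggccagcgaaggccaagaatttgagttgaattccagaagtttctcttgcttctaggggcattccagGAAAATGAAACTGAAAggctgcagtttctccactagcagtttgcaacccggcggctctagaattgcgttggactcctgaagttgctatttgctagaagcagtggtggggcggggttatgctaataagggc
The Isg15 window held 3 matches that overlapped each other and the Bst2 window 2 that overlapped. Of the 45 listed genes, 34 matched an entry of the table, and 17 of these held the element, against 3.46% of all 27025 genes. None of the 12 matched genes named as higher in resident-like cells held it. A match again describes letters and no binding.

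MHC class I genes were higher in RP-6306 in both populations, by a smaller ratio in resident-like cells. Of 7 that passed, 6 were higher in RP-6306, with a median log2 ratio of 0.13 (5 of 7 with TMM scaling), and the list added up to 5426 CPM in RP-6306 and 4848 CPM in vehicle, whose ratio was 1.12 (1.05 to 1.19). In the other C1q-positive cells 12 of 12 were higher, with a median of 0.41 and a summed ratio of 1.34 (1.29 to 1.39). H2-K1, a heavy chain, was at 1653 CPM in RP-6306 and 1463 CPM in vehicle resident-like cells, a log2 ratio of 0.18, and had a ratio of 0.40 in the others. B2m, the light chain, was at 1611 CPM in RP-6306 and 1467 CPM in vehicle resident-like cells, a log2 ratio of 0.13, and had a ratio of 0.56 in the others. The intervals of the 2 summed ratios did not overlap, but they cover counting error only and the difference was not tested over samples. Cxcl10, an interferon-induced chemokine, was at 543 CPM in RP-6306 and 439 CPM in vehicle resident-like cells, with up to 61 of 205 UMIs in 1 RP-6306 cell and 46 of 221 in 1 vehicle cell. Iigp1, an interferon-induced GTPase, had 33 UMIs in RP-6306, 23 of them in 1 cell, and 2 in vehicle.

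Between treatments 50.1% of all 1449 genes were higher in RP-6306 resident-like cells. Of the interferon gamma list 2 genes passed, both higher, and its summed ratio was 1.35 (1.19 to 1.52), against 1.32 in the others. The MHC class II list had a median of 0.27 over 8 genes, 7 of them higher, and a summed ratio of 1.22 (1.16 to 1.29), in a sum that few cells carry. Immediate-early and heat shock genes were lower in RP-6306 for 17 of 21 in resident-like cells, with a median of -0.25, and for 19 of 21 in the others, with -0.23. Of 9 cell cycle genes 7 were lower, with a median of -0.08; Top2a, which untangles DNA before division, stood at 140.4 CPM in RP-6306 and 230.3 CPM in vehicle. Of 23 lipid and lysosome genes 19 were higher, with a median of 0.16 and Apoe at 0.45. Haem and iron genes had a median of 0.27 over 7, of which 5 were higher, with Fth1 at 0.47. Chemokines were even, with 7 of 14 higher and a median of 0.01 (-0.03 with TMM scaling), whereas Ccl2, Ccl7 and Ccl12 had log2 ratios of 0.04, 0.22 and 0.38. Monocyte genes had a median of 0.09 over 14 and complement genes of 0.06 over 6, of which 5 were higher (3 with TMM scaling). Checkpoint and suppressive genes had a median of -0.30 over 6, of which 5 were lower, with Pilra, an inhibitory receptor, at -0.56.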

How the data were processed

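Single-cell 3' RNA libraries of RM-1 tumours, 1 for RP-6306 and 1 for vehicle, were taken as deposited. The authors deposited for each library a matrix of raw UMI counts per gene and barcode, not normalized, written by Cell Ranger 7.1.0 per the file headers; version 2.1.1 and the build mm10 stand in the submitters' processing notes, and which version made the counts was not resolved. The deposited lists of barcodes and features name the matrix rows and columns. Cell Ranger discards reads shared between genes, which lowers near-identical paralogs.

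Treatment was taken from the labels. Barcodes passed at 500 genes and 15% mitochondrial UMIs. No doublet caller was run. The keratin limit removes barcodes with more than 3 UMIs of Krt8 and Krt18, and how many mixtures with tumour cells remained was not tested. An alternative leaves out cells with marker UMIs of other types. Counts were summed per population and library and scaled to CPM, with a pseudocount of 1 on the log2 scale. Levels have exact Poisson intervals, shares Clopper-Pearson intervals and ratios exact conditional intervals. For differences of shares the square-and-add interval was used. No p-value was computed, as each treatment has 1 library. Genes were named by fixed rules: the 5 markers, up to 15 per direction past 2-fold in both libraries between populations, up to 10 per direction past 2-fold between treatments, and from each list the most abundant and most different members; mitochondrial, ribosomal, haemoglobin, receptor variable and unnamed genes and those under 0.1 of the highest other gated population were not named. The members and gene lists were chosen with earlier results of these data known. A gene list entry was found by name for 515 of 517 genes, and 52081 of 55357 features matched GENCODE M21. Python 3.11.15, numpy 2.4.6, scipy 1.17.1, pandas 2.3.3, matplotlib 3.10.9 and edgeR 4.0.16 in R 4.3.3 were used, edgeR for TMM factors alone. The functions were tested on simulated data. Values of some single list members are not reported here.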

Additional observations from a re-analysis of the deposited data

How the results depend on the processing

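The share difference of -7.36 points, the 109 genes past 2-fold between populations, the 11 genes past 2-fold between treatments, and the list medians for type I interferon (0.65), MHC class II (-1.80, mean of both libraries), resident and perivascular genes (1.32, likewise) and MHC class I (0.13) were recomputed under the alternatives. Of the recomputed values, 63 stayed within the limit set for them, and 30 did not. The limit was the counting interval for the share difference and 1.5 times for gene counts. List medians have no counting interval of their own, so their margin was taken from the width of the interval of the list's summed ratio. No list median changed sign, whereas the share difference did under 1 alternative. Thinning cells to 2000 UMIs before the rule gave 63 genes between populations and 5 between treatments. The 63 were 21 higher and 42 lower in resident-like cells, against 65 and 44 before. Medians were 0.20 over 1 interferon gene, -2.10 over 9 class II genes and 1.06 over 14 resident genes (5, 9 and 22 before). Leaving out cells with 2 or more marker UMIs of other types kept 17 members in RP-6306 and 12 in vehicle. It gave a share difference of 2.16 points, 7 genes between treatments and medians of 0.26 over 2, -2.69 over 9 and 1.06 over 13 of the same lists, with 0.34 over 3 for class I. Between populations it gave 103 genes, a total within the limit, but 32 were higher and 71 lower. Its marker list counts Mmp9 and Pdpn, which members express. With Mmp9, Csf3r, Pdpn and Acta2 not counted, an alternative chosen after seeing the data, 44 members were left in RP-6306 and 51 in vehicle, with 6 genes between treatments and medians of 0.46 over 3 interferon and 1.39 over 19 resident genes. A limit of 10 UMIs with no CPM limit gave 523 genes between populations and 709 between treatments, and medians of 0.83 over 34 interferon, -1.34 over 13 class II and 1.47 over 32 resident genes, and a limit of 200 UMIs gave 2 genes between treatments. Leaving out the 2 single cells, also chosen after seeing the data, gave 4. Class II stood at -2.12 with at least 2 of the 3 choosing genes, -2.37 with no keratin UMI and -1.89 with TMM scaling. Resident genes stood at 1.26 with 2 of 3 genes, 1.22 with a C1q minimum of 6, 1.41 as a mean of per-cell CPM, 1.23 with TMM scaling and 1.26 with a pseudocount of 5, and class I at 0.26 with no keratin UMI. The cause of these shifts was not tested. No paired analysis was possible because each treatment has 1 library and no test was made. Depth limits genes under 100 UMIs in 58 RP-6306 and 72 vehicle cells, and no alternative stands in for a second library.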
